A study of Mus musculus with 6 samples.

Results

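The genes described here are 10 core genes of blood vessel growth and of vessel lining: the ligands Vegfa and Vegfb, their receptors Flt1, Kdr and Nrp1, the angiopoietins Angpt1 and Angpt2 with their receptor Tek, and the endothelial surface proteins Pecam1 and Cdh5. They were found by symbol: every non-control probe whose gene name in the scanner files was one of the 10 was taken, which gave 18 probes of 150305. They are 10 of 18332 genes with a tested probe. A further 10 probes carried a RefSeq accession of one of these genes in place of a symbol. They lie outside that choice and are given beside it as probes named by accession.

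RNA came from abdominal adipose tissue of C57BL/6 mice, on 3 arrays after duodenal-jejunal bypass (DJB) and 3 after a sham operation (Sham). Both groups were fed high fat, starting at an age of 6 weeks, and were operated on 12 weeks later, when they are described as diabetic. DJB mice had a biliopancreatic limb of 5 cm and a Roux limb of 4 cm, and in Sham mice the gut was cut and sewn back in place. The labels give neither the fat depot nor the time between operation and sampling, and do not say that each array was a separate animal, so p-values here reflect only how these arrays spread, which may be technical. The number of arrays limited the precision.

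VEGF-A is the main growth signal for endothelial cells. It acts through the receptor tyrosine kinase VEGFR2, encoded by Kdr, while VEGFR1, encoded by Flt1, binds the ligand tightly and signals little, so that it can act as a decoy. VEGF-B binds VEGFR1 and neuropilin-1 but not VEGFR2. Angiopoietin-1 activates the receptor Tie2, encoded by Tek, and steadies vessels, and angiopoietin-2 is released by activated endothelium and can oppose it. Adipose tissue is densely supplied with capillaries, and adipocytes themselves make VEGF-A.

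Values below are log2 intensities minus the 75th percentile of the same array, so 0 is that percentile, and a value has a meaning only against the same probe on another array. Differences are DJB minus Sham on this log2 scale, with the standard error (SE) of limma's moderated test and p-values adjusted by the Benjamini-Hochberg method over the 99431 probes tested. A probe is called where this adjusted p is under 0.05. All 18 member probes were well above background on all 6 arrays and were tested, so none was lost to the filter on dim probes.

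Kdr and Vegfb were lower after DJB, by 0.75 ± 0.11 and 0.96 ± 0.14 (SE, n = 3 per group) on the log2 scale, and no other member was called. With the slide as a block neither passed the threshold (limma, adjusted p = 0.0599 for Kdr and 0.06 for Vegfb). These were 2 of the 18 member probes (11.1%), both lower, where of the 24023 tested probes with a gene name 6.67% were called, 4.35% lower and 2.32% higher. Over all 99431 tested probes 5% were called, 3.15% lower and 1.84% higher. In bulk tissue, fewer of the cells that make an RNA and less of it per cell cannot be told apart. Which cells made the RNA of Kdr or Vegfb was not tested. Of the 18 differences 15 were below 0, against 43.2% of gene-named probes, and their median was -0.29, against 0.071. The 3 differences above 0 were both Nrp1 probes and Angpt2. The arrays of the groups did not overlap for 4 probes that were lower in DJB (Kdr and 1 probe each of Vegfb, Flt1 and Cdh5) and for both Nrp1 probes, which were higher. Among gene-named probes 45.2% had groups that did not overlap, 18.3% with all DJB arrays lower and 27% with all higher.

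**Figure D1:**
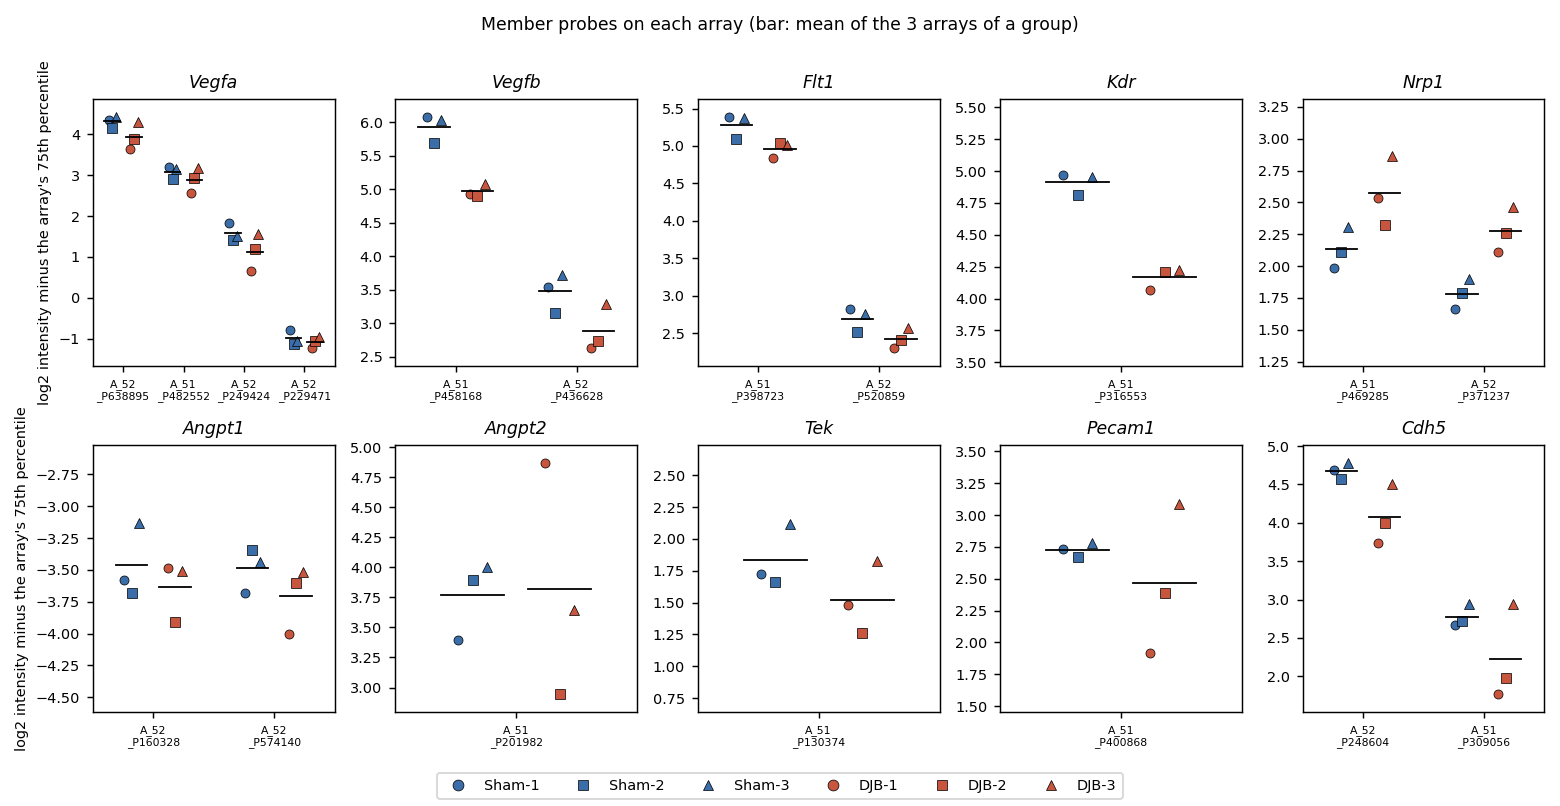
Log2 intensity minus the array's 75th percentile (y axis) of each of the 18 member probes (x axis) on the 3 Sham arrays (blue) and the 3 DJB arrays (red), 1 panel per gene. Bars are means of 3 arrays, and each panel has its own y range. Kdr and Vegfb A_51_P458168 show 2 separate groups, and Angpt2 shows 1 DJB array far above the others of its group.

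Vegfa, the ligand that drives sprouting, had 4 probes on chromosome 17 (mm9, minus strand, the build named in the file headers), all below 0 and none called. Probe A_52_P638895 at chr17:46154387-46154446 read 4.36, 4.16 and 4.43 in Sham and 3.64, 3.89 and 4.30 in DJB. DJB-3 lay among the Sham arrays, DJB-1 and DJB-2 below them, and the difference was -0.37 ± 0.19 (limma, adjusted p = 0.257). Probe A_52_P249424 read 1.82, 1.40 and 1.51 in Sham and 0.65, 1.18 and 1.56 in DJB, a difference of -0.45 ± 0.25 (limma, adjusted p = 0.292). Again DJB-3 was inside the Sham range and DJB-1 was the lowest of all 6.

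Along the genome the Vegfa probes follow each other from the most upstream as A_52_P229471, A_52_P249424, A_51_P482552 and A_52_P638895. In this order the differences were -0.09, -0.45, -0.20 and -0.37, with standard errors of 0.15, 0.25, 0.19 and 0.19. They did not rise or fall steadily along the gene. Whether the probes differed from each other was not tested, and these errors cannot decide it because all probes share the same arrays. The Vegfa probe named by accession read 4.73, 4.66 and 4.95 in Sham and 3.97, 4.35 and 4.42 in DJB. Its groups did not overlap, and its difference was -0.53 ± 0.16 (limma, adjusted p = 0.102). The adjusted p of every Vegfa probe missed the threshold, and the 95% intervals reach from -1.06 to 0.26, so a fall by more than a factor of 2 is inside the interval of 1 probe only.

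Vegfb, the ligand of VEGFR1 that is known for its link to fatty acid uptake through endothelium, fell. Probe A_51_P458168 (chr19:7056961-7057019, mm9, minus strand) read 6.08, 5.69 and 6.03 in Sham and 4.93, 4.90 and 5.08 in DJB. All 3 DJB arrays lay below all 3 Sham arrays, with a difference of -0.96 ± 0.14 (limma, adjusted p = 0.0318), so that the signal fell by 48.6%. The second probe, A_52_P436628, 285 bases upstream, read 3.54, 3.16 and 3.72 in Sham against 2.62, 2.74 and 3.29 in DJB. There DJB-3 exceeded the lowest Sham array, and the difference was -0.59 ± 0.23 (limma, adjusted p = 0.162). The accession-named probe, which overlaps the first, read 6.67, 6.31 and 6.67 in Sham and 5.68, 5.76 and 5.80 in DJB (-0.80 ± 0.14, limma, adjusted p = 0.0383).

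Kdr, the receptor through which VEGF-A drives endothelial growth, fell too. Probe A_51_P316553 (chr5:76329309-76329368, mm9, minus strand) read 4.97, 4.82 and 4.95 in Sham and 4.07, 4.21 and 4.22 in DJB. Within each group the 3 arrays were close together, with SDs of 0.08 and 0.09, and the groups did not overlap. The difference was -0.75 ± 0.11 with a 95% interval of -1.02 to -0.48 (limma, adjusted p = 0.0309), and the signal fell by 40.4%. The accession-named Kdr probe has the identical sequence of 60 bases at another place on the array, so it repeats the measurement of the same RNA. It read 5.11, 4.94 and 5.07 in Sham and 4.21, 4.22 and 4.19 in DJB (-0.83 ± 0.10, limma, adjusted p = 0.0242).

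The sequences that carry both calls are shown here, each as a stretch of 30 bases, 5′ to 3′. Capitals mark bases that the symbol-named and the accession-named probe of the gene have in common, so the agreement of such a pair is not evidence from separate sites.
Kdr A_51_P316553: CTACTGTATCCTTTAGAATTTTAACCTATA
Vegfb A_51_P458168: ATGATAACTGTGACACACACACACACTCAC
Among the 29 pairs of probes of the same member, 3 shared a run of 20 or more bases (the pairs of Kdr, Vegfb and Flt1), and the longest shared run of the others was 7 bases.

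Both calls were lost under several other fits, the slide block given above among them. Within slide 1 alone the adjusted p was 0.115 for Kdr and 0.0875 for Vegfb, and with no filter on dim probes it was 0.0676 and 0.0678 (limma). Leaving out any of Sham-1, Sham-2, Sham-3, DJB-1 or DJB-2 ended both calls, with adjusted p of 0.0636 to 0.128 for Kdr and 0.0616 to 0.126 for Vegfb, while the differences kept within -0.80 to -0.70 and -1.08 to -0.89 over the 6 such fits.

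Flt1, the decoy-like receptor VEGFR1, was not called. Probe A_51_P398723 (chr5:148373791-148373850, mm9) read 5.39, 5.09 and 5.37 in Sham and 4.84, 5.04 and 5.01 in DJB. The groups did not overlap, but the gap between the lowest Sham and the highest DJB array was small beside the spread, and the difference was -0.32 ± 0.13 (limma, adjusted p = 0.180). The neighbouring probe A_52_P520859 gave -0.27 ± 0.14 (limma, adjusted p = 0.249) and the accession-named one -0.24 ± 0.13 (limma, adjusted p = 0.283). The 3 Flt1 probes thus lay close together. The 95% interval of the first had its lower end at -0.64.

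Nrp1, the co-receptor neuropilin-1 of VEGF and semaphorins, was the only receptor among the members with symbol-named probes above 0, and its accession-named probe was near 0. Probe A_51_P469285 (chr8:131026650-131026709, mm9, plus strand) read 1.98, 2.11 and 2.31 in Sham and 2.53, 2.32 and 2.86 in DJB, a difference of 0.44 ± 0.18 (limma, adjusted p = 0.167). Probe A_52_P371237, 34377 bases upstream, read 1.67, 1.79 and 1.90 in Sham and 2.11, 2.26 and 2.47 in DJB, a difference of 0.49 ± 0.14 (limma, adjusted p = 0.0856). On both, every DJB array was above every Sham array, though neither passed the threshold. The accession-named probe read 5.19, 5.26 and 5.59 in Sham and 5.43, 5.58 and 5.03 in DJB, a difference of -0.01 ± 0.19 (limma, adjusted p = 0.988), with the groups fully mixed. The first probe is printed because it has 1 open frame, where the second has 3, and its capitals mark the whole codons of that frame.
Nrp1 A_51_P469285: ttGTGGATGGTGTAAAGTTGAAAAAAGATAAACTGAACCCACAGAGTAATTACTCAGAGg
It shares no run over 7 bases with the accession-named probe, so these probes read different stretches of Nrp1 RNA. The difference between them was not tested, and which transcripts each one catches was not analysed here.

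Angpt1 encodes the ligand that activates Tie2, and both its symbol-named probes were dim. Probe A_52_P160328 (chr15:42258569-42258628, mm9) read -3.58, -3.68 and -3.13 in Sham and -3.48, -3.91 and -3.51 in DJB, and A_52_P574140 (chr15:42327896-42327955) read -3.68, -3.34 and -3.44 in Sham and -4.0, -3.60 and -3.52 in DJB. The lowest values well above background were between -5.10 and -4.72 over the arrays, so both probes sat near the bottom of the measurable range. Their differences of -0.17 ± 0.20 and -0.22 ± 0.17 were close in size to their own errors (limma, adjusted p = 0.615 and 0.450), and they turned to 0.13 and 0.11 with normexp background correction. The accession-named probe read 1.17, 1.41 and 1.36 in Sham and 0.06, 0.75 and 0.81 in DJB. Its groups did not overlap, and it differed by -0.78 ± 0.22 (limma, adjusted p = 0.0900).

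Angpt2, the ligand released by activated endothelium, varied most among the members. Probe A_51_P201982 (chr8:18691458-18691517, mm9) read 3.40, 3.90 and 4.01 in Sham and 4.87, 2.94 and 3.65 in DJB. The DJB arrays held both the highest and the lowest of the 6 values, with an SD of 0.97 against 0.33 in Sham, and the difference of 0.05 ± 0.48 had a 95% interval from -1.12 to 1.23 (limma, adjusted p = 0.953). Without DJB-1 it was -0.47. The accession-named probe read 0.17, 0.47 and 0.79 in Sham and 0.61, -0.11 and 0.12 in DJB (-0.27 ± 0.24, limma, adjusted p = 0.506), and DJB-1 was again the highest of its group.

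Tek, the Tie2 receptor of both angiopoietins, read 1.73, 1.66 and 2.11 in Sham and 1.48, 1.26 and 1.82 in DJB at probe A_51_P130374 (chr4:94540861-94540919, mm9). The groups overlapped, and the difference was -0.31 ± 0.20 (limma, adjusted p = 0.341). The accession-named Tek probe gave -0.19 ± 0.18 (limma, adjusted p = 0.533).

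Pecam1 and Cdh5 encode CD31 and VE-cadherin, the adhesion proteins by which endothelial cells are commonly recognised. Pecam1 read 2.73, 2.67 and 2.78 in Sham and 1.92, 2.39 and 3.08 in DJB at probe A_51_P400868, whose 60 bases span 1854 bases of chromosome 11 (mm9, 106542389 to 106544242) and so cross a splice junction. The Sham arrays had an SD of 0.06 while the DJB arrays lay on both sides of them, and the difference was -0.26 ± 0.29 (limma, adjusted p = 0.587). The accession-named probe showed the same spread, with 4.79, 4.73 and 4.93 in Sham and 3.88, 4.51 and 5.03 in DJB (-0.34 ± 0.29, limma, adjusted p = 0.470).

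Cdh5 at probe A_52_P248604 (chr8:106668159-106668218, mm9) read 4.68, 4.57 and 4.78 in Sham and 3.74, 4.0 and 4.51 in DJB. The groups did not overlap, with a difference of -0.60 ± 0.21 (limma, adjusted p = 0.134). Probe A_51_P309056, 660 bases upstream, read 2.67, 2.72 and 2.94 in Sham and 1.77, 1.98 and 2.94 in DJB, a difference of -0.55 ± 0.31 (limma, adjusted p = 0.298). The accession-named probe read 5.85, 5.78 and 5.99 in Sham and 4.84, 5.16 and 5.34 in DJB, a difference of -0.75 ± 0.16 (limma, adjusted p = 0.0514). Cdh5 thus had 3 separate sites with estimates of similar size, and none was called. The array DJB-3 was the highest of its group at each of them.

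**Figure D2:**
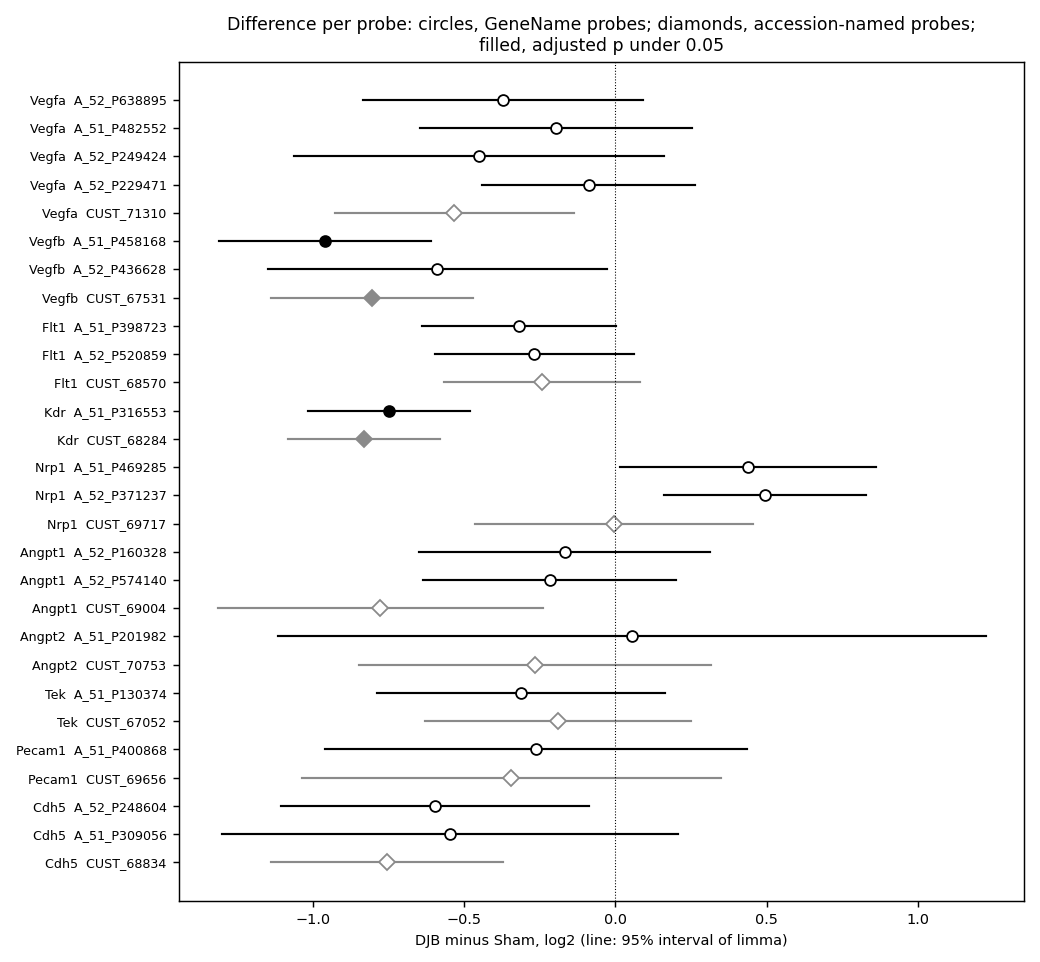
DJB minus Sham difference (x axis, log2) of each of the 28 probes of the 10 genes, with limma's 95% interval. Circles are the 18 symbol-named probes, grey diamonds the 10 probes named by accession, and filled marks are called; only Kdr and Vegfb have filled marks, and Nrp1 is the only gene with intervals wholly above 0.

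The 10 accession-named probes held 2 called lower (Kdr and Vegfb) and none higher, where 5% of all tested probes were called, 3.15% lower. The 2 called share runs of 60 and 44 bases with the called symbol-named probes, so they are not separate sites. All 10 differences were below 0, with a median of -0.44, against 0.080 over all tested probes. Shares over all accession-named probes were not computed. With 1 probe per member, the tested symbol-named probe of highest mean, 2 of the 10 genes were called lower, where 7.5% of 18332 genes were called, 6.09% lower and 1.41% higher.

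The arrays came on 2 slides. Slide 1 held Sham-1, Sham-3, DJB-1 and DJB-2, and slide 2 held Sham-2 and DJB-3, so slide 2 gives 1 array against 1, with no test. Kdr was -0.83 on slide 1 and -0.59 on slide 2, Vegfb A_51_P458168 was -1.14 and -0.60, and the Nrp1 probes were 0.28 and 0.40 on slide 1 and 0.75 and 0.68 on slide 2. For 11 of the 18 member probes the sign was opposite on the 2 slides, among them all 4 Vegfa probes, Tek, Pecam1 and Angpt2. Over 24019 gene-named probes with values on all arrays, 76.3% had the same sign on both slides, against 38.9% (7) of the member probes. DJB-3 was the highest DJB array for 15 of the 18 probes and DJB-1 the lowest for 13, and Sham-2 was the lowest Sham array for 13. Slide and array cannot be told apart on slide 2.

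**Figure D3:**
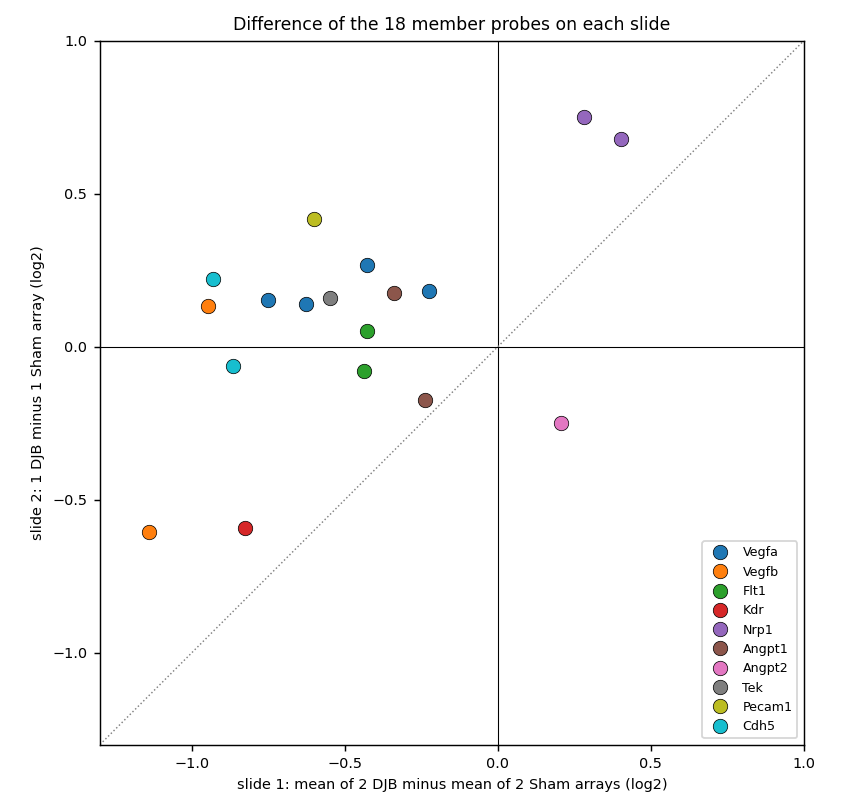
DJB minus Sham difference (log2) of the 18 member probes on slide 1 (x axis, 2 arrays against 2) and on slide 2 (y axis, 1 array against 1). The dotted line marks equal values. Kdr and 1 Vegfb probe lie well below 0 on both slides, both Nrp1 probes lie above 0 on both, and 10 probes lie below 0 on slide 1 and above 0 on slide 2.

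Differences between 2 members on the same array leave out what both share. Of these, 7 pairs were computed, each with an exact two-sided permutation test, for which 3 against 3 arrays cannot give a p below 0.10. Kdr minus Cdh5 was 0.29, 0.25 and 0.17 in Sham and 0.33, 0.21 and -0.28 in DJB, a change of -0.15 (exact permutation p = 0.8). Nrp1 minus Cdh5 was -2.70, -2.46 and -2.48 in Sham and -1.20, -1.68 and -1.64 in DJB, a change of 1.04 with no overlap (exact permutation p = 0.1, adjusted over the 7 pairs 0.233). Vegfa minus Vegfb was -1.73, -1.53 and -1.60 in Sham and -1.29, -1.01 and -0.78 in DJB, a change of 0.59 with no overlap (exact permutation p = 0.1, adjusted 0.233).

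Pecam1 minus Cdh5 changed by 0.34 with no overlap (exact permutation p = 0.1, adjusted 0.233). Flt1 minus Cdh5 changed by 0.28 (exact permutation p = 0.4), Tek minus Cdh5 by 0.28 (exact permutation p = 0.3) and Angpt2 minus Angpt1 by 0.22 (exact permutation p = 0.8), all with overlapping groups. With 3 arrays a group none of the 7 could pass after adjustment. The Nrp1 pair uses the probe that differs from the accession-named one, as given above. The Angpt2 pair uses the dim Angpt1 probe A_52_P160328, whose own difference changed sign with normexp background correction. The brighter accession-named Angpt1 probe differed by -0.78.

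Other genes of the VEGF family were read from a list. For this and the later lists, the shares over all 18332 genes were 6.09% called lower and 1.41% higher, and 43.2% of gene-named probes were below 0. Of 5 tested ligands and receptors outside the 10, 1 was called lower and none higher, with a median difference of -0.87 against 0.0040 over all genes. Vegfc, the ligand that drives lymphatic growth, read 3.0, 3.04 and 2.59 in Sham and 1.60, 0.93 and 1.71 in DJB and fell by 1.46 ± 0.24 (limma, adjusted p = 0.0371). Vegfd, the other lymphatic ligand, differed by -0.87 ± 0.21 (limma, adjusted p = 0.068), and Nrp2, the neuropilin of lymphatic endothelium, by 0.54 ± 0.16 (limma, adjusted p = 0.096), neither called. Flt4, the receptor of both lymphatic ligands, and Pgf, the placental growth factor that binds VEGFR1, differed by -1.07 and -0.22 and were not called either.

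On the list of Tie and angiopoietin genes, which also holds genes outside that family, 1 of 8 tested was called lower and none higher, with a median of -0.64. Ptprb, the endothelial phosphatase VE-PTP that dephosphorylates Tie2, read 5.93, 5.66 and 6.01 in Sham and 4.63, 4.95 and 5.03 in DJB, and fell by 1.0 ± 0.16 (limma, adjusted p = 0.0353). Angptl4, an inhibitor of lipoprotein lipase that adipocytes also make, differed by -0.33 ± 0.18 (limma, adjusted p = 0.278), and Dok2, an adaptor of Tie2, by 0.52 ± 0.29 (limma, adjusted p = 0.293).

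Of 21 genes of VEGF receptor signalling and of tip and stalk cells, 3 were called lower and none higher, with a median of -0.49 and 18 below 0. Nrarp, a Notch target of stalk cells, fell by 1.66 ± 0.25 (limma, adjusted p = 0.0320). Nos3, the endothelial nitric oxide synthase downstream of VEGFR2, fell by 1.48 ± 0.28 (limma, adjusted p = 0.0454). Efnb2, the ephrin of arterial endothelium, fell by 1.07 ± 0.15 (limma, adjusted p = 0.0299). For all 3 genes every DJB array was below every Sham array, as for 18.3% of gene-named probes. These genes were picked by their calls on the same arrays, so this adds no support. The semaphorin receptor Plxnd1 (-0.18 ± 0.17) and the Notch ligand Jag1 (0.11 ± 0.13) were not called.

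Low oxygen is the condition that induces Vegfa, and the list of genes for it holds both regulators, such as Vhl, and responding genes. Of 16 tested, 2 were called lower and 2 higher, with a median of -0.075. Hilpda, a lipid droplet protein that inhibits lipolysis, rose by 1.40 ± 0.14 (limma, adjusted p = 0.0173), from 5.68, 6.08 and 5.71 in Sham to 7.15, 7.30 and 7.22 in DJB. Slc2a1, the glucose transporter GLUT1, rose by 1.10 ± 0.17 (limma, adjusted p = 0.0326). Egln3, an oxygen-sensing prolyl hydroxylase, fell by 1.37 ± 0.27 (limma, adjusted p = 0.0462), and Vhl, the ubiquitin ligase subunit that removes hypoxia-inducible factors, fell by 0.90 ± 0.11 (limma, adjusted p = 0.0242). Ldha (0.074 ± 0.11) and Epas1 (-0.24 ± 0.17) were not called, and the sign of Ldha turned with quantile normalization. Of the 9 genes called in these 4 lists, 1 (Hilpda, adjusted p = 0.0361) was also called with the slide as a block. Without Sham-1 or DJB-2 none of the 9 was called by limma, without Sham-2 or DJB-1 only Hilpda was, without Sham-3 it was 3 and without DJB-3 all 9.

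**Figure D4:**
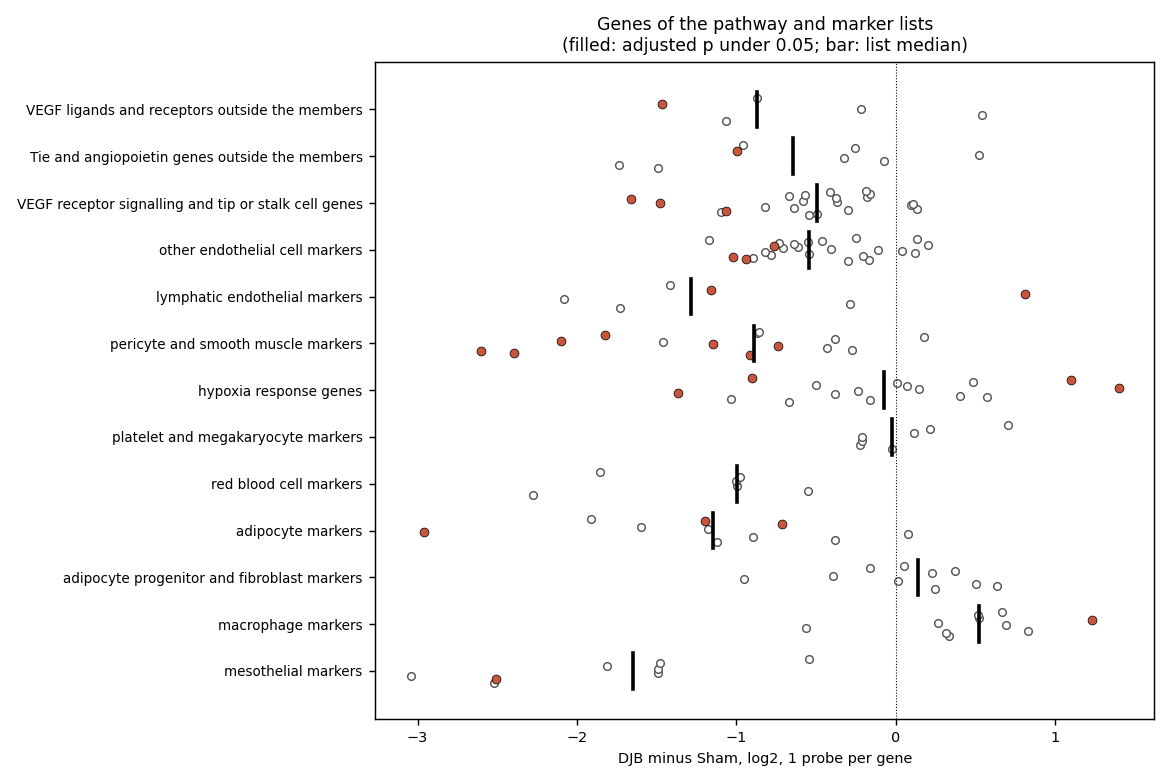
DJB minus Sham difference (x axis, log2, 1 probe per gene) of the genes of each pathway and marker list (y axis), with called genes filled and the list's median as a bar. The pericyte and smooth muscle list has 7 called genes, all lower, and the macrophage list has its median at 0.52.

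The summed intensities of marker probes of several cell types differed between the groups as well, and their part in the members' differences was not tested. Such a sum adds different probes and is set mostly by the brightest, such as Aqp1 in the endothelial list and Ccl21a in the lymphatic one. It is therefore not a measure of how much of a cell type was present. Over all 18332 genes 6.09% were called lower and 1.41% higher, with a median of 0.0040, and 43.2% of gene-named probes were below 0. Of 24 other endothelial markers, all well above background on every array, 3 were called lower (Clec14a, Cdh13 and Myct1) and none higher, 20 were below 0 and the median was -0.55. Their summed level, in units of each array's 75th percentile, was 1197 to 1284 in Sham and 752 to 1115 in DJB. Among the DJB arrays it was lowest on DJB-1 and highest on DJB-3, which were also the lowest for 13 and the highest for 15 of the 18 member probes. This order was not particular to endothelial markers. On DJB-1, DJB-2 and DJB-3 adipocyte markers summed to 1465, 2501 and 2637, and red blood cell markers to 751, 1141 and 1629. The sums of the other lists did not have this order.

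Pericytes and smooth muscle cells wrap vessels. Of 14 pericyte and smooth muscle markers 7 were called lower and none higher, with a median of -0.89 and a summed level of 481 to 662 in Sham and 203 to 270 in DJB. Among them Rgs5, a pericyte regulator of G protein signalling, fell by 1.82 ± 0.19 (limma, adjusted p = 0.0176). Acta2, smooth muscle actin, fell by 2.40 ± 0.14 (limma, adjusted p = 0.00554), although its 4 probes ranged from -3.22 to 0.066. Both calls were kept with the slide as a block, with adjusted p of 0.0390 and 0.0177 (limma). Acta2 was called in all 6 fits with 1 array left out, and Rgs5 in 4, the call ending without Sham-1 or DJB-2. The calls of all other marker genes named here were lost with the slide as a block and without Sham-1, Sham-2, DJB-1 or DJB-2.

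Adipocyte markers, a check of the labelled tissue, were all 10 well above background on every array and summed to 2992 to 3487 in Sham and 1465 to 2637 in DJB, with 3 called lower (Lep, Retn and Pparg), none higher and a median of -1.15. Macrophage markers summed to 2076 to 2724 in Sham and 3137 to 3468 in DJB, with 1 of 10 called higher (Itgam), none lower and a median of 0.52. Red blood cell markers summed to 2223 to 2785 in Sham and 751 to 1629 in DJB, and none of the 6 was called, though 5 had an unadjusted p under 0.05. Mesothelial markers summed to 137 to 207 and 29.9 to 80.0, with 1 of 8 called lower (Krt19).

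Lymphatic markers had 1 of 6 called lower (Prox1) and 1 higher (Pdpn), with a median of -1.29. Their summed level overlapped between the groups, with 98.7 to 348 in Sham and 64.8 to 155 in DJB. Prox1 was dim, with a mean of -3.90, and well above background on only 5 of the 6 arrays. Platelet markers had none of 7 called by limma and none with an unadjusted p under 0.05, and progenitor and fibroblast markers none of 10, of which 4 had an unadjusted p under 0.05.

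The list gene whose 6 array values, each centred on its mean, came nearest to those of a member was looked up among 145 genes, with the root mean square difference (log2) as the measure. It was Gpihbp1 for Vegfa (0.050), Notch4 for Cdh5 (0.071), Pparg for Kdr (0.072), Egln1 for Flt1 (0.074), Cd34 for Angpt1 (0.10) and Vhl for Vegfb (0.11). It was Gp9 for Tek (0.13), Aqp1 for Pecam1 (0.14) and Lyz2 for Nrp1 (0.19), and for Angpt2 no gene came nearer than Pi16 (0.38). All these values come from the same 6 arrays and share their scaling, and those of Angpt1 are from its dim probe A_52_P160328.

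A further 22 probes named by a genomic interval lie inside member genes on GRCm38: 7 in Vegfa, 6 in Angpt1, 6 in Pecam1, 2 in Flt1 and 1 in Nrp1. The files do not say what transcripts they read. Of the 21 tested, none was called by limma, where 3.84% of 31953 interval-named probes were, and 1, in Vegfa, had an unadjusted p under 0.05. Their differences were -0.64 to -0.20 in Vegfa, -0.31 to -0.22 in Pecam1, -0.67 to 0.067 in Angpt1, -0.21 and 0.34 in Flt1 and -0.17 in Nrp1. The Vegfa and Pecam1 intervals were thus all below 0, like the genes' other probes. Many of these intervals overlap and all were read on the same arrays, so their equal signs are not separate evidence. On slide 2, however, DJB-3 read above Sham-2 for every Vegfa and Pecam1 interval. The share of all interval-named probes below 0 was not computed.

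Promoter sequence was at hand for 6 of the members, as the 250 bases before each annotated start in RefSeq (GRCm38.p6), with 2 starts for Vegfa. Searched on both strands were the letters of the hypoxia response core (GCGTG in one form and ACGTG in the other). So were the core bound by ETS factors, which reads CCGGAA, and the core bound by GATA factors, which reads TTATCT. Upstream of Vegfb and of Kdr the first form, GCGTG, was found 2 times each. It was found 1 time each upstream of Flt1, Nrp1 and the second Vegfa start, and not upstream of Tek or the first Vegfa start. Of all 32851 windows of this length 28.2% hold it. ACGTG was in the second Vegfa window only (16.6% of all windows), CCGGAA in that of Kdr only (12.0%) and TTATCT in the first of Vegfa only (9.99%). The windows of Vegfb and Kdr have a GC content of 76.4% and 61.6%, against a median of 52.4%.

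The windows of the 2 genes that fell are printed with every match to the hypoxia response and ETS cores, on either strand, in capitals, 5′ to 3′ on the gene's strand. No match overlaps another. Kdr is at chr5:75978456-75978705 and Vegfb at chr19:6987652-6987901 (GRCm38.p6, both minus strand).
Kdr promoter: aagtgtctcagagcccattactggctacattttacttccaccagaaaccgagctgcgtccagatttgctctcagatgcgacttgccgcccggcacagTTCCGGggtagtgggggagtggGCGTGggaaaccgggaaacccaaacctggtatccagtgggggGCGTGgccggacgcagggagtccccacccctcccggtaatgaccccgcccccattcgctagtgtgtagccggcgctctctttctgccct
Vegfb promoter: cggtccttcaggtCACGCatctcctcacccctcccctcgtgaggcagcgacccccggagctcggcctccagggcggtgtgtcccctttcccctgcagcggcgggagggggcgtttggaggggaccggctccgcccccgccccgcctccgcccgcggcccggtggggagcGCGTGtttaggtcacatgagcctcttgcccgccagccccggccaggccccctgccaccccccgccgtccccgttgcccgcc
A match is a description of the letters only, and no binding was measured.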

How the data were processed

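The arrays have 1 colour. Per the file headers, they were quantified with Agilent Feature Extraction 12.0.3.1 (protocol GE1_1200_Jun14). The deposited scanner files give each spot's processed intensity, which Feature Extraction had background-subtracted. A table of log2 values was deposited by the authors too. Its columns correlated with their own arrays at 0.99986 or more, were not centred per gene and had medians of 4.54 to 4.56; how it was normalized is not given in the sources used here. The submitters' processing notes name limma, and the series' design text describes another experiment and was not used.

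With R 4.3.3 and limma 3.58.1, log2 of the processed intensity minus each array's 75th percentile over non-control probes was computed. Spots flagged as outliers, 18 to 25 per array, were set to missing. No member probe was saturated. Well above background were 62.6% to 68.8% of probes per array, and the 75th percentile of intensity ranged from 132.0 on a DJB array to 183.7 on a Sham array. Probes well above background on at least 3 of 6 arrays were tested with lmFit and eBayes (no covariates), with Benjamini-Hochberg adjustment over 99431 probes, of which 4967 (5%) were called, 3.15% lower and 1.84% higher. The fit was run on simulated data with planted changes larger than those of Kdr and Vegfb and with no slide effect. That run therefore cannot speak for differences of their size. A gene's value is that of its tested probe of highest mean signal; for members only symbol-named probes were eligible, and including the accession-named ones is an alternative chosen after seeing the data. Exon and UTR annotation of the probes was not analysed here. Vegfa probe sequences are not reported here.

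The members and gene lists were chosen with earlier results of these data known. All members are named with every probe. From each of the 4 pathway lists, the called genes (up to 4, by size) and the 2 uncalled genes of highest mean signal are named; Flt4 and Pgf were added after their values were seen. Alternatives covered background correction, scaling, the authors' log2 values, the filter, the variance prior, the slide, the replicate number and each array left out.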

Additional observations from a re-analysis of the deposited data

How the results depend on the processing

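Kdr and Vegfb kept both direction and call with normexp, quantile normalization, median scaling, the authors' log2 values, a filter on all 6 arrays, and a trended and robust prior. Of the 18 member probes 0, and of the 10 member genes 0, were called without a filter on dim probes (649 of all probes then called), with the slide as a block (707) or within slide 1 (0). Leaving out 1 array gave 0 to 3 member probes and 0 to 2 member genes; only without DJB-3 were there any, with Cdh5 A_51_P309056 as the third (-0.90, limma, adjusted p = 0.0445). The probe Nrp1 A_52_P371237 was called higher with normexp (0.40, limma, adjusted p = 0.0361) and with the trended and robust prior (limma, adjusted p = 0.0461). The 4 pathway lists held 9 called genes, 14 with normexp and 7 with median scaling. Of these 9, only Hilpda was still called with no filter or with the slide as a block, and 0 within slide 1 or with the replicate block.

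Scaling set the level of all differences. The median over gene-named probes was 0.071, and 0.18 with median scaling; relative to it Kdr differed by -0.82 and Vegfb by -1.03, the same under both by construction. Over all probes 63.2% of calls were lower, 41.2% with normexp (11905 calls), 56.6% with quantile normalization and 51.5% with median scaling.

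Other differences changed sign, none of them called, and the cause was not tested. With normexp Angpt1 A_52_P160328 gave 0.13, A_52_P574140 gave 0.11 and Angpt2 minus Angpt1 gave -0.13. Vegfa A_52_P229471 gave 0.017 with median scaling. Ldha gave -0.14 with quantile normalization and -0.14 with the authors' values. The Nrp1 gene value was -0.0056 with accession-named probes included. With 1 array left out, Vegfa A_52_P229471 ranged from -0.16 to 0.018, Angpt2 from -0.47 to 0.49, Pecam1 from -0.57 to 0.010, Angpt2 minus Angpt1 from -0.23 to 0.52 and Kdr minus Cdh5 from -0.27 to 0.033. On slide 2 the values opposite to those of all arrays were Vegfa 0.14, 0.27, 0.15 and 0.18, Vegfb A_52_P436628 0.13, Flt1 A_52_P520859 0.051, Angpt1 A_52_P160328 0.18, Angpt2 -0.25, Tek 0.16, Pecam1 0.42 and Cdh5 A_51_P309056 0.22.

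Samples with the same replicate number did not deviate together (correlations of -0.18, -0.12 and -0.29). With so few arrays a group, and some same-numbered samples on different slides, these values cannot decide whether the numbers pair the samples. With the replicate block 0 member probes and 0 member genes were called, and Kdr and Vegfb had adjusted p of 0.135 and 0.124 (limma), and 0 of all probes were called.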
